A study of Mus musculus with 6 samples.

Results

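The genes described here encode the proteins of blood clotting and clot removal: the clotting factors other than fibrinogen, their inhibitors, the enzymes of fibrinolysis, and the proteins that modify or export clotting factors in the cell of origin. They form a list of 33 genes, set by name and role with no cut-off on a measured value, though earlier results of these data were known when the list was drawn up. Of the 33, 31 had a probe set that the platform table assigns to that gene alone, out of 19938 genes measured in this way. Klkb1, which encodes plasma prekallikrein, shares its probe set with Cyp4v3, and no probe set is listed under Cpb2, which encodes the fibrinolysis inhibitor TAFI. Neither is given a value. Each of the 31 had 1 probe set, so no choice between probe sets was needed.

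The data were 6 Affymetrix arrays of whole liver from male C57BL6 mice aged 10 weeks, all fasted overnight for 16 h. Livers were taken 1 h after an intraperitoneal injection of saline (3 arrays) or of interleukin-6 (IL-6) at 100 ng per mouse (3 arrays). Saline animals therefore share the fast, the injection and the interval with the IL-6 animals. The comparison asks which liver transcripts differ shortly after IL-6. All values are log2 expression values made with RMA, and differences are IL-6 minus saline. Probe sets bind with different strength, so levels are compared between arrays for 1 gene. The rank of a level among all genes is used only to mark dim probe sets, not to say which of a pair of transcripts is more abundant.

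Clotting is a chain of serine proteases that cut and activate each other until thrombin turns fibrinogen into fibrin. Hepatocytes make most of the soluble factors and inhibitors, while endothelial cells make von Willebrand factor, thrombomodulin, tissue plasminogen activator and much of factor VIII. Several factors carry glutamates that are carboxylated in a vitamin K-dependent reaction, which lets them bind membranes. IL-6 acts on hepatocytes through STAT3 and is known for raising fibrinogen and other acute-phase proteins.

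Arrays of a group correlated at 0.989 to 0.991 over all probe sets and arrays of different groups at 0.987 to 0.990. On the second principal component saline replicate 2 and IL-6 replicate 3 lay on one side and the other 4 arrays on the opposite side, and no batch is labelled. Hepatocyte markers stood at a mean level of 12.3 to 12.4 in every array, with albumin (Alb) at 13.4. None of 10 hepatocyte, 11 endothelial, 10 Kupffer cell and macrophage, 4 platelet, 8 stellate cell or 4 cholangiocyte markers passed the test (limma; 3 of these 47 at unadjusted p under 0.05), and 1 of 8 neutrophil markers, S100a8, rose. S100a8 averaged 3.60 after saline and 4.24 after IL-6, both below the 25th percentile of all genes (4.59). The neutrophil markers had no common direction, with 4 positive differences and 4 negative ones. S100a9 had -0.01, Camp -0.10, Elane -0.14 and Ly6g -0.27, while Ngp had 0.05, Mpo 0.11 and Cxcr2 0.15. All 8 stood below the median level of all genes, 5 of them below the 25th percentile. In bulk liver, fewer cells of a type and less RNA per cell cannot be told apart.

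None of the 31 clotting and fibrinolysis transcripts passed the test 1 h after IL-6. Their differences ran from -0.32 for F11, the zymogen factor XI of the contact pathway, to 0.18 for F13a1, the A chain of the fibrin-crosslinking factor XIII. In limma, 0 of 31 were called at adjusted p under 0.05 (n = 3 arrays per group), against 0.421% of all genes, and at this rate fewer than 1 call would fall in a list of this size. At unadjusted p under 0.05, limma passed 2 of the 31, Kng1 (higher) and F11 (lower), against 6.62% of all genes. In the same 2 genes, and in no other of the 31, the saline and IL-6 values were fully separate, against 11.6% of all genes. The median difference of the 31 was -0.01 and that of all genes was 0.003. Positive differences numbered 13 and negative ones 18, but 18 of the 31 took the other sign in at least 1 of the 16 other fits, so these counts show no common direction.

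The intervals bound the size of change in the RMA values that is compatible with these arrays. RMA can compress large changes, and how far it does so for these transcripts was not tested. In 30 of the 31 genes the 95% limma interval lay within 0.5 of 0 on the log2 scale, that is within a 1.41-fold change in either direction, as it did for 94.3% of all genes. The exception was F11, whose interval reached -0.53. All 31 intervals lay within 1 log2 unit. These intervals are for each gene alone and are not widened for the number of genes.

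**Figure D1:**
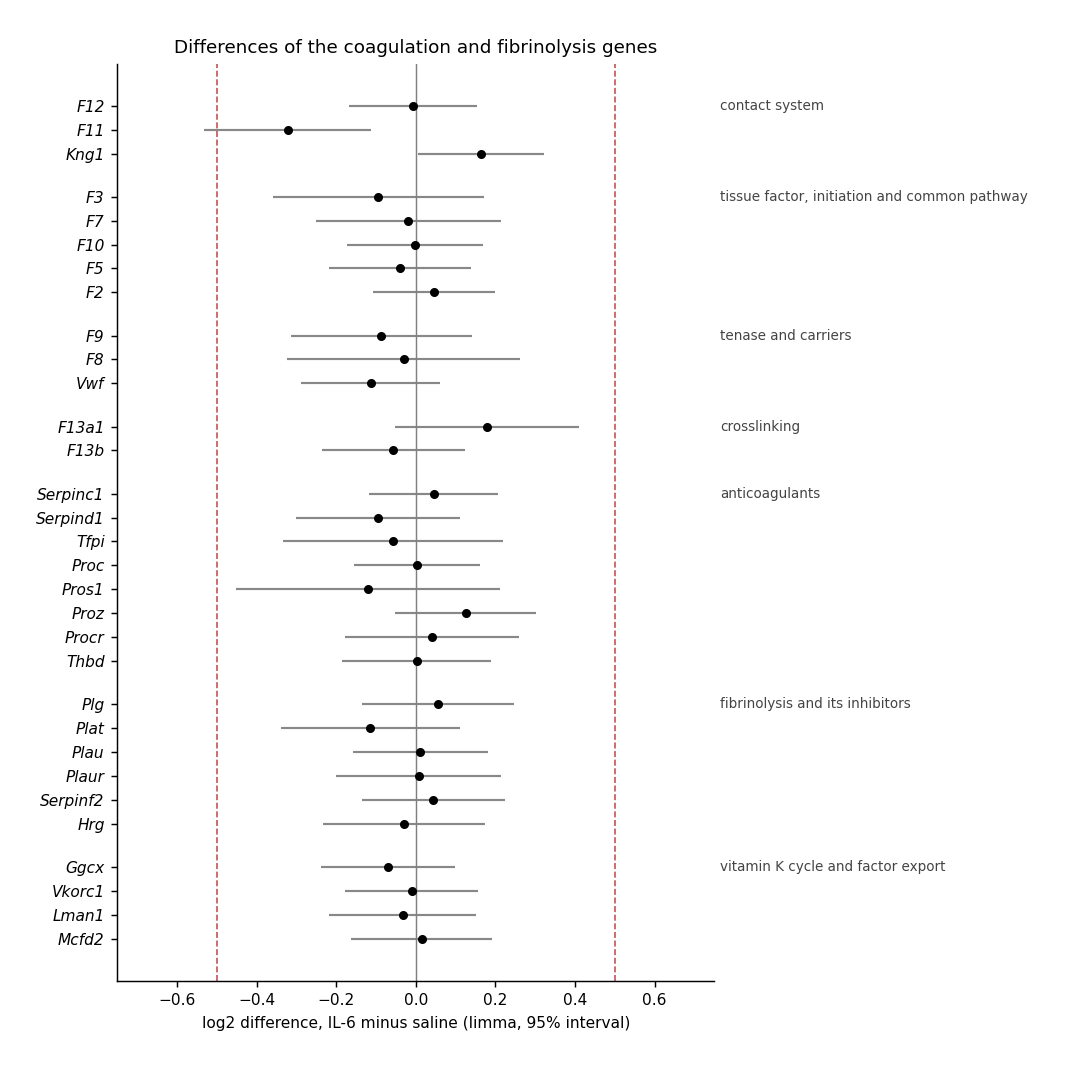
Difference of each of the 31 genes on the log2 scale, IL-6 minus saline (horizontal axis), with its 95% limma interval, ordered by role. Points are estimates from 3 arrays per group, and dashed lines mark -0.5 and 0.5. The F11 interval crosses the lower dashed line, and those of F11 and Kng1 leave out 0.

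The contact system starts clotting on negatively charged surfaces and releases bradykinin from kininogen. F11 (probe set 10578427) read 7.46, 7.66 and 7.38 in saline replicates 1 to 3 and 7.25, 7.08 and 7.21 in IL-6 replicates 1 to 3. Every IL-6 array lay below every saline array. The difference was -0.32 ± 0.09 (standard error), or 0.80 of the saline level, with a 95% interval from -0.53 to -0.11 (limma adjusted p = 0.420). Over the other fits the adjusted p of F11 ran from 0.218 to 0.765.

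Kng1, which encodes kininogen, the carrier of prekallikrein and factor XI and the source of bradykinin, stood on the other side of 0. Its probe set (10434719) read 12.25, 12.16 and 12.26 after saline and 12.38, 12.40 and 12.39 after IL-6, so all IL-6 arrays lay above all saline arrays, and the IL-6 SD was 0.0067 (n = 3). The difference was 0.16 ± 0.07, or 1.12-fold (limma adjusted p = 0.732), and the upper limit of its interval was 1.25-fold. F12, the surface-activated factor XII, had a difference of -0.0067 ± 0.07 and overlapping groups, at 10.47 to 10.57 after saline and 10.47 to 10.52 after IL-6.

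In the initiation and common pathway, tissue factor with factor VII activates factor X, which with factor V turns prothrombin into thrombin. None of these 5 genes had separate groups. F2, which encodes prothrombin, read 11.77, 11.73 and 11.73 after saline and 11.79, 11.77 and 11.81 after IL-6. Its SD was 0.02 in each group (n = 3), and its difference was 0.05 with an interval from -0.11 to 0.20. F10 had a difference of -0.0014 ± 0.08, F7 one of -0.02 ± 0.10 and F5 one of -0.04 ± 0.08. F3, the gene of tissue factor, had -0.09 ± 0.12 at a mean level below the median of all genes, where the background of a probe set could not be assessed.

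The intrinsic tenase is formed by factor IX with its cofactor factor VIII, which von Willebrand factor carries in plasma. F9 read 9.67, 9.95 and 9.67 after saline and 9.67, 9.57 and 9.80 after IL-6, a difference of -0.09 ± 0.10. F8 read 7.01, 7.28 and 7.15 after saline and 7.17, 6.83 and 7.34 after IL-6, with IL-6 arrays both below and above all saline arrays. Vwf had -0.11 ± 0.08, with IL-6 values of 6.20, 6.19 and 6.35 against 6.30, 6.39 and 6.38. The 11 endothelial markers averaged 7.20 to 7.32 over saline arrays and 7.19 to 7.35 over IL-6 arrays, and their part in the values of F8 and Vwf was not tested.

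Factor XIII crosslinks fibrin. F13a1, its catalytic chain, which macrophages and platelets make, had the largest positive difference of the 31 at 0.18 ± 0.10 (limma adjusted p = 0.854). It read 4.07, 4.40 and 4.42 after saline and 4.42, 4.49 and 4.52 after IL-6, and without saline replicate 1 the difference was 0.07. This was the only one of the 31 with a mean below the 25th percentile of all genes (4.59). Kupffer cell and macrophage markers averaged 6.16 to 6.24 over saline arrays and 6.21 to 6.47 over IL-6 arrays, and platelet markers 5.53 to 5.60 and 5.52 to 5.58. Their part in the F13a1 values was not tested. F13b, the carrier chain, which hepatocytes make, had -0.06 ± 0.08.

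**Figure D2:**
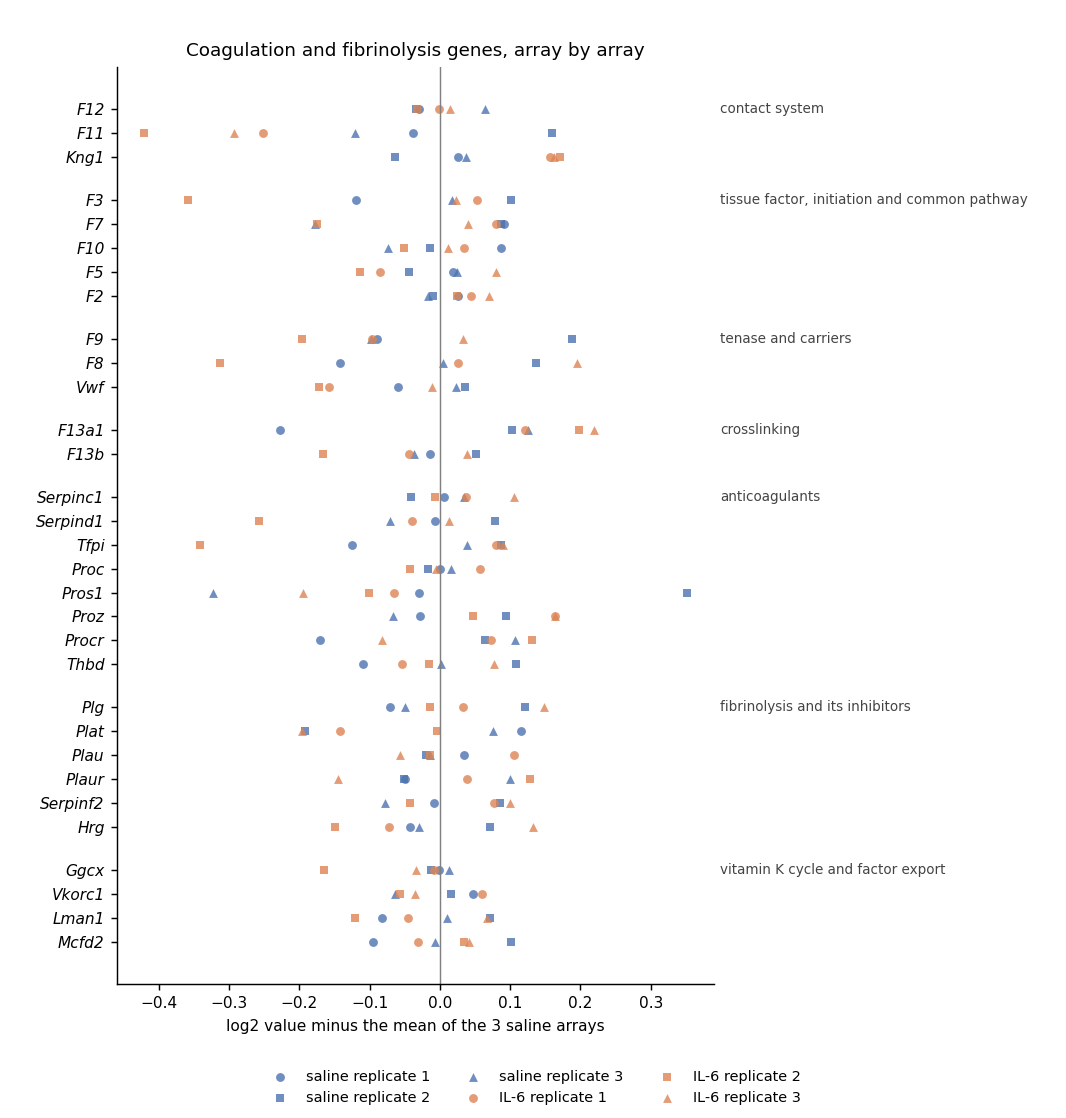
Value of each of the 31 genes in each array, as the log2 value minus the mean of the 3 saline arrays (horizontal axis), ordered by role. Colour gives the group and shape the replicate number. Saline and IL-6 points mix in every row but F11 and Kng1, and the orange square, IL-6 replicate 2, is often leftmost.

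The anticoagulant genes encode the inhibitors that confine clotting. None of the 8 measured had separate groups. Proc, which encodes protein C, a protease that inactivates factors V and VIII, read 10.00, 9.98 and 10.01 after saline and 10.05, 9.96 and 9.99 after IL-6, a difference of 0.0036 ± 0.07. Serpinc1, which encodes antithrombin, the main inhibitor of thrombin and activated factor X, had 0.05 ± 0.07. Serpind1, which encodes heparin cofactor II, had -0.09 ± 0.09. Thbd and Procr, which encode the receptors that bring thrombin and protein C together on endothelium, had 0.0023 ± 0.08 and 0.04 ± 0.10, and Tfpi, the inhibitor of tissue factor, had -0.06 ± 0.12.

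Pros1, which encodes protein S, the cofactor of protein C, varied most between control arrays. It read 9.038, 9.419 and 8.745 after saline and 9.002, 8.967 and 8.873 after IL-6. The saline SD was 0.34 against a median of 0.08 over the 31 genes, and the difference of -0.12 ± 0.15 took values from -0.28 to 0.09 as arrays were left out or processed otherwise. All 3 IL-6 arrays lay inside the saline range.

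Proz encodes protein Z, a cofactor with which the serpin ZPI inhibits activated factor X. Proz read 9.10, 9.22 and 9.06 after saline and 9.29, 9.18 and 9.29 after IL-6, and IL-6 replicate 2 lay below saline replicate 2. The difference was 0.13 ± 0.08 (limma adjusted p = 0.877). Serpina10, the gene of ZPI and not among the 31, read 8.33, 8.37 and 8.13 after saline and 9.87, 9.73 and 10.02 after IL-6. Serpina10 rose 3.03-fold, by 1.60 ± 0.10 (limma adjusted p = 0.000115). The lower limit of its interval, 1.37, lay above the upper limit for Proz, 0.30. In this inhibitor pair the transcript of the serpin rose and that of its cofactor did not pass the test.

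The fibrinolysis genes encode plasminogen, its activators and their receptor, and inhibitors. Plg, the plasminogen gene, read 11.93, 12.12 and 11.95 after saline and 12.03, 11.98 and 12.14 after IL-6, a difference of 0.06 ± 0.08. Serpinf2, the gene of alpha-2-antiplasmin, had 0.04 ± 0.08, and Hrg, which encodes a histidine-rich plasma protein that binds plasminogen and heparin, had -0.03 ± 0.09. Plat and Plau, the tissue and urokinase activators, had -0.11 ± 0.10 and 0.01 ± 0.08, and Plaur, the urokinase receptor, had 0.0076 ± 0.09. The last 3 stood below the median level of all genes, together with F3, F13a1, Procr and Tfpi.

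The vitamin K cycle and the export of factors V and VIII gave differences from -0.07 to 0.01. Ggcx, the gamma-carboxylase, had -0.07 ± 0.07, and Vkorc1, the warfarin-sensitive reductase that recycles vitamin K, had -0.01 ± 0.07. Lman1 and Mcfd2, which together form the cargo receptor that carries factors V and VIII out of the endoplasmic reticulum, had -0.03 ± 0.08 and 0.01 ± 0.08. All 4 had overlapping groups.

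**Figure D3:**
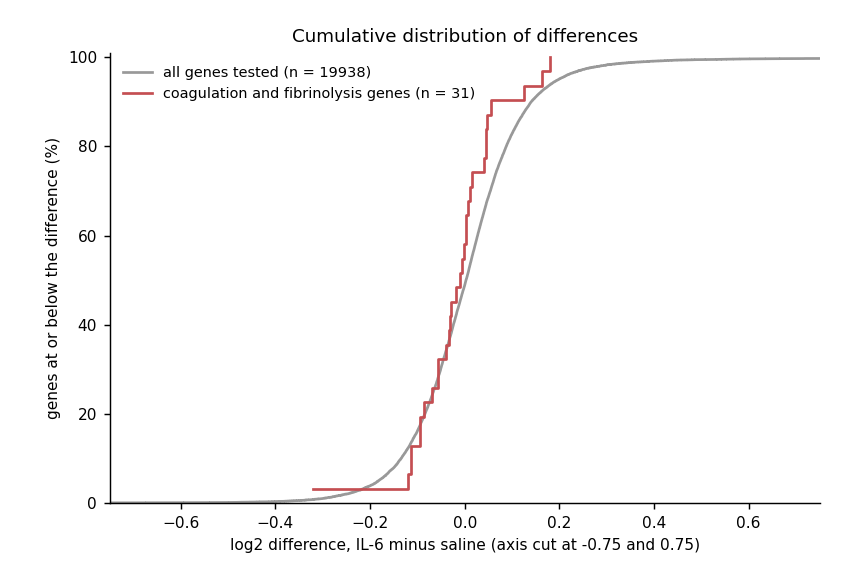
Cumulative share of genes (vertical axis, percent) at or below a log2 difference, IL-6 minus saline (horizontal axis), for the 31 coagulation and fibrinolysis genes and for all 19938 genes tested. The stepped line of the 31 genes runs from -0.32 to 0.18, and the medians are -0.01 and 0.003.

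Some of these genes lie side by side in the mouse genome, by the order of protein-coding genes in the RefSeq table for GRCm38.p6. F7, F10 and Proz follow each other, and their differences were -0.02, -0.0014 and 0.13. Hrg, Kng2 and Kng1 also follow each other. Kng2, a second kininogen gene that is not among the 31 and is close to Kng1 in sequence, read 10.50, 10.18 and 10.47 after saline and 10.79, 10.53 and 10.92 after IL-6. The values of its groups were separate, and its difference was 0.36 ± 0.12 (limma adjusted p = 0.531), next to 0.16 for Kng1 and -0.03 for Hrg. Neither kininogen passed the test, and how far each probe set also detects the other transcript was not tested. Kng2 is named after its values were seen.

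**Figure D4:**
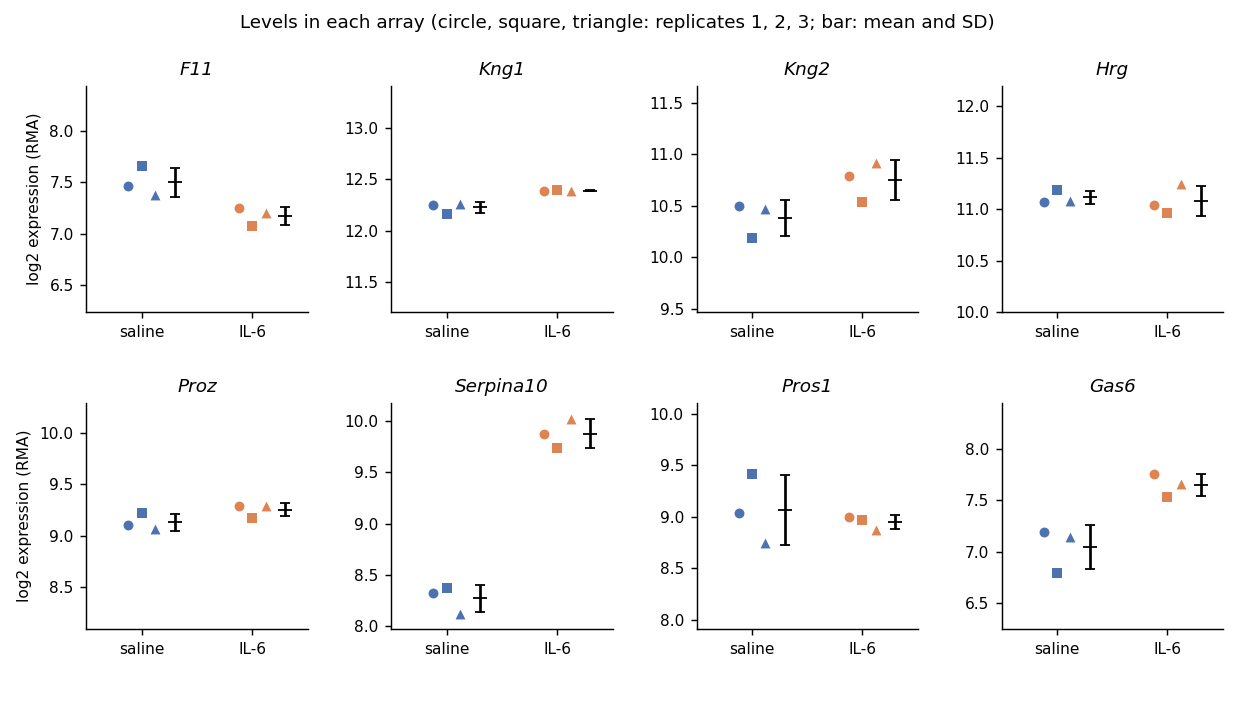
Level in each array (log2, vertical axis, of the same height in log2 units in every panel) of F11, of the neighbours Kng1, Kng2 and Hrg, of Proz with Serpina10, and of Pros1 with Gas6. Symbols are replicates and bars give the mean and SD of 3 arrays. The groups are apart in F11, Kng1, Kng2, Serpina10 and Gas6 and overlap in Hrg, Proz and Pros1.

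A list of 47 related haemostasis genes held further inhibitors, fibrinolysis genes, genes linked to vitamin K, protease and clearance receptors, and other factors of plasma and platelets. Of these, 39 were measured. Serpina10 alone rose, 0 fell, and 38 did not pass, against 0.421% of all genes called. The median difference was 0.05, and groups were separate in 10 of 39, against 11.6% of all genes. At unadjusted p under 0.05, limma passed 5 of the 39, 4 higher and 1 lower, against 6.62% of all genes. The 5 were Serpina10, Gas6, Kng2, Hgf (0.22 ± 0.08) and, lower, Gp9 (-0.20 ± 0.09), all with separate groups. These are descriptions of a list chosen with results known. The genes named next cover only inhibitors and receptors of the list and were picked after their values were seen. The other inhibitors included Serping1, the C1 inhibitor that also blocks factor XII and kallikrein, at 0.01 ± 0.08, and Apoh, a phospholipid-binding plasma protein, at 0.02 ± 0.07. The asialoglycoprotein receptor genes Asgr1 and Asgr2, which clear desialylated plasma proteins, had -0.08 ± 0.08 and 0.06 ± 0.08. Lrp1, a hepatic clearance receptor for factor VIII and protease complexes, had 0.19 ± 0.09.

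Gas6, a vitamin K-dependent ligand of the TAM receptors and the closest relative of Pros1, came next to Serpina10 in that list and is named after its values were seen. It read 7.19, 6.80 and 7.14 after saline and 7.75, 7.53 and 7.66 after IL-6, with all IL-6 arrays above all saline arrays. The difference was 0.60 ± 0.11, or 1.52-fold, with an interval from 0.35 to 0.86. It missed the threshold (limma adjusted p = 0.0892) and passed it in 5 of the 16 other fits (adjusted p from 0.0298 to 0.417). The interval of Gas6 lay above that of Pros1, which ran from -0.45 to 0.21. Neither interval is widened for the choice of Gas6 by its values, so this contrast is a description only.

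STAT3 binds DNA at a spaced palindrome, searched here as TTCNNNGAA, which reads the same on both strands. RefSeq promoters (GRCm38.p6), from 250 bases before to 50 after the start site, were matched by symbol to 25 of the 33 genes and to 23 of the 31 measured. Of the 23, 2 held the motif, F9 and Pros1, a share of 8.70% against 8.99% of the 15614 genes tested that had a promoter. Among the genes that rose after IL-6, 14 of 58 with a promoter held it, or 24.1%, including the fibrinogen chain gene Fga and the feedback inhibitor Socs3. Their upstream stretches are shown because the same motif stands before genes that rose and before genes that did not pass. The motif is in capitals, and each stretch runs 5′ to 3′ on the strand of its gene. Those of F9 (chrX:59999356-59999416, plus strand), Pros1 (chr16:62854189-62854249, plus), Fga (chr3:83025903-83025953, plus) and Socs3 (chr11:117969486-117969546, minus) read:
F9: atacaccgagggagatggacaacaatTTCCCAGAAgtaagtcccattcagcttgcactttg
Pros1: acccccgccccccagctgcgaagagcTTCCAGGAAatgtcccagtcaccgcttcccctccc
Fga: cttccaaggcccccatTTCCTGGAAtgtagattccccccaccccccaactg
Socs3: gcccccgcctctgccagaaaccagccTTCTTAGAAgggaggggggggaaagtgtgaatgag

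The motif began 82 bases before the start site of F9, 92 before that of Pros1, 234 before that of Fga and 154 before that of Socs3. Fga rose by 0.98 ± 0.12 and Socs3 by 3.15 ± 0.11 (limma adjusted p = 0.00742 and 1.45e-06), while F9 and Pros1 had -0.09 ± 0.10 and -0.12 ± 0.15. Of the 33 related genes measured that had a promoter, 5 held the motif (15.2%), among them Asgr1 and Lrp1, and none of these 5 passed the test. The promoters of F11, Kng2 and Gas6 did not hold these letters within the window, and those of Kng1 and Serpina10 are not used here. A match describes the letters only and is no evidence of binding.

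The 31 genes also differed between arrays of the same group. IL-6 replicate 2 was the lowest of the 3 IL-6 arrays in 22 of the 31 genes, against 32.1% of all genes and 39.6% of genes at or above the median level, where 24 of the 31 lie. It was the lowest of all 6 arrays in 13 of the 31, against 16.9% of all genes and 20.9% of those at or above the median level. F11, Tfpi, F3, F8 and Serpind1 were examples, at -0.42, -0.34, -0.36, -0.31 and -0.26 relative to their saline means in that array. Saline replicate 2 was the highest saline array in 16 of the 31, and IL-6 replicate 3 the highest IL-6 array in 17, against 31.0% and 33.3% of all genes and 35.0% and 46.0% of those at or above the median level. Without IL-6 replicate 2 the median difference of the 31 was 0.01, and without saline replicate 2 it was 0.00291, so the sign of the median rested on single arrays. In IL-6 replicate 2 the Kupffer cell and macrophage markers averaged 0.26 above the saline mean. Endothelial markers averaged -0.06 relative to it (median -0.0016), and hepatocyte markers -0.01. That array was the lowest of the 3 IL-6 arrays in 8 of the 11 endothelial markers and in 4 of the 10 hepatocyte markers. The part of these cell types in the low values was not tested.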

How the data were processed

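The deposited log2 values are expression values per probe set. The submitters' processing notes name RMA as the authors' tool, and for its version, its settings and the build the entry is: not given in the sources used here. RMA corrects background, normalizes between arrays and summarises probes, which can compress large changes and remove shifts common to most genes. The table held 35556 probe sets, of which 21789 had 1 gene symbol. For genes with several, the probe set with the highest mean was kept, leaving 19938 genes with no filter on dim genes. IL-6 and saline were compared with limma 3.58.1 (lmFit, eBayes; R 4.3.3), two-sided, with Benjamini-Hochberg adjustment over 19938 genes and a threshold of 0.05. The fit was tested on simulated data. An exact permutation test of 3 against 3 arrays cannot give a p under 0.1. The labels do not state that each array is a separate animal, and p-values then measure only the spread between samples, which may be technical. The number of arrays limits the precision.

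The genes, the related and marker lists and the alternatives were chosen with earlier results of these data known, and the motif search after seeing the values. Named genes were every measured member and each related gene that passed. Kng2, Gas6, Hgf, Gp9, Serping1, Apoh, Asgr1, Asgr2, Lrp1, Fga and Socs3 fall outside this rule and were chosen after their values were seen. Alternatives were median centring, cyclic loess, filters on dim genes, averaging the probe sets of a gene, other variance priors, weights per array, a block for replicate number, leaving out arrays, other thresholds and every probe set on its own.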

Additional observations from a re-analysis of the deposited data

How the results depend on the processing

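No coagulation or fibrinolysis gene was called in any of the 16 other fits (lowest limma adjusted p 0.218, for F11), and 0 were called at adjusted p under 0.1 or with every probe set tested. At unadjusted p under 0.05, 1 was higher and 1 lower, next to 754 and 565 of all genes and to 4 and 1 of the related genes. The median difference of the 31 ran from -0.03 to 0.01 over the other fits. It was positive when saline replicate 2 or IL-6 replicate 2 alone was left out and negative otherwise. Among related genes, 2 rose in place of 1 with median centring, with genes above the median of level, with a variance prior with a trend, robust or not, and at adjusted p under 0.1, and the added gene was Gas6. With the replicate number as a block 2 related genes rose as well, 0.0472 being the limma adjusted p of Gas6. The labels do not state that the numbers pair the arrays, and 3 arrays per group cannot settle it. Deviations of same-numbered arrays correlated at 0.08, -0.12 and -0.09, and saline replicate 2 correlated best with IL-6 replicate 3 (0.18). Serpina10 was called in all 16 fits. Over all genes, leaving out 1 array gave 45 to 67 higher and 3 to 5 lower genes, and leaving out saline replicate 2 with IL-6 replicate 3 gave 31 and 2. At adjusted p under 0.1, 97 genes were higher and 12 lower. With all 35556 probe sets tested, 16 probe sets rose and 1 fell, a count of probe sets and not of genes. The cause of these shifts was not tested. Without scanner intensities, signal over background could not be assessed for the 7 genes below the median level.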
